A study of Mus musculus with 54 samples.

Results

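The distal end of mouse chromosome 14 is described here as it appears in a list of accessible regions in mouse embryonic stem (ES) cells. Its members are all peaks of that list on chromosome 14 whose centre lies at or beyond 97.7 Mb (build GRCm38), up to the last sequenced base at 124802244. These were 2701 of the 113737 peaks in all, and 2701 of the 5172 peaks of chromosome 14. The position was selected on the measured peak density, at a step between neighbouring intervals, so the high density of the stretch is a property it was chosen for and is given as a description without a test. The list is a single set of positions without read counts, so widths and counts have no replicate error, and values by sample or condition were not analysed here. Neither read depth nor DNA copy number along the chromosome was analysed here.

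The peaks come from ATAC-seq, in which the transposase Tn5 inserts sequencing adapters into open chromatin. The cells were ZHBTc4, a mouse ES cell line whose own OCT4 alleles are disrupted and whose OCT4 transgene is shut off by doxycycline (dox). All carried mCherry-OCT4-AID, an OCT4 that is degraded when indole-3-acetic acid (IAA) is added, and YPet-MD, a fluorescent protein with a mitotic degron that tells early from late G1 cells and served, with Hoechst stain, to sort cell cycle phases. The 54 libraries belong to 24 groups of 2 or 3 libraries, and all had received dox. Early G1, late G1, S and SG2 cells had 26 h of dox with 500 nM IAA for 2 h or none. Cells of the same phases had 31 h of dox with 2.5 h of IAA, or none, followed by a washout of 4.5 h. Unsorted cells had 34 h of dox and 30 min or 1, 2, 3, 4, 6 or 10 h of IAA or none. The OCT4-AID construct was expressed at a low level from the PGK promoter and Tir1-V5, the ligase adaptor it needs, from pCAGGS, both after lentiviral transduction and sorting of a cell population that is not stated to be 1 clone. Peaks of all these libraries had been merged, so no member can be assigned to a treatment.

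An ATAC-seq peak marks DNA that is not tightly packed on nucleosomes. Promoters rich in CpG dinucleotides are open in nearly every cell type, whereas peaks away from transcription start sites (TSSs) often mark enhancers, which bind sequence-specific factors, or sites of the architectural protein CTCF. Chromosomes alternate between gene-dense segments of high GC content and gene deserts of low GC content, and the latter usually hold few open sites. A peak is called proximal below where its centre lies within 1 kb of an annotated TSS of any gene class, and distal otherwise. All 7 ES cell marker genes examined, among them Pou5f1, Sox2 and Nanog, had a peak at a TSS, but so did the 4 trophoblast, 4 primitive endoderm and 4 fibroblast markers, so a TSS peak in the merged list did not tell these cell types apart.

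3 sequences show the kinds of peaks the stretch is made of, with CpG dinucleotides in capitals. The first lies within the TSS peak of Klf5, a Krüppel-like factor that helps to maintain ES cells, and ends at the base before the TSS (chr14:99298391-99298690, GRCm38, plus strand, 300 bases). The second is the centre of the distal peak of median width in the window of 1 Mb with the most distal peaks (chr14:114061346-114061545, plus strand, 200 bases). The third is the centre of the first distal peak of the stretch (chr14:97707772-97707971, plus strand, 200 bases).

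Klf5 TSS peak: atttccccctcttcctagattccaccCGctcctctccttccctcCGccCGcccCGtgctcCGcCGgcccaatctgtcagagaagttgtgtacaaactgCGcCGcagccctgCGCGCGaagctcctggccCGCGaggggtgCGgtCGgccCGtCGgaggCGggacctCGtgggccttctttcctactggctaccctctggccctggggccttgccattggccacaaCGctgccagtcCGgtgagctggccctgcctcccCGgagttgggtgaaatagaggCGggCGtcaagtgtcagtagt
Densest window, distal peak: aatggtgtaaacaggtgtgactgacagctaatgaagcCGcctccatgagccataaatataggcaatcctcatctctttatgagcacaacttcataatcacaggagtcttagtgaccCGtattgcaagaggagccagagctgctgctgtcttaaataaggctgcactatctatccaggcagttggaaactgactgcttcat
First distal peak: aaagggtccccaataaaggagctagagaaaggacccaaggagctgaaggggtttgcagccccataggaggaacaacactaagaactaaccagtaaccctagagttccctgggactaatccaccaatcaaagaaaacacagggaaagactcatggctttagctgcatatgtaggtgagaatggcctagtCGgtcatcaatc

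The Klf5 sequence holds 24 CpG dinucleotides, the distal sequence of the densest window 2 and the first distal sequence 1. The Klf5 peak was 1289 bp wide with a GC content of 69.4%, and its centre lay 206 bp from a Klf5 TSS. The distal peak of the densest window was 324 bp wide with 45.1% GC and no repeat-masked base, and its centre was 746837 bp away from Tpm3-rs7, whose TSS was the closest of any protein-coding gene. The first distal peak was 285 bp wide with 48.1% GC, was repeat-masked over its whole length, and lay 461672 bp from the TSS of Dach1.

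The stretch began abruptly. The last peak before it was a proximal peak of 1025 bp at chr14:96517867-96518891, and 1188837 bp without any peak followed. The first member, the 285 bp peak ending at 97708013, was followed by peaks at 97721807-97722292 and 97723280-97723972. In the 50 intervals of 100 kb before the start, 39 held no peak and none held more than 4, for 14 peaks in total. In the 50 intervals after the start every one held a peak, from 2 to 19 with a median of 9, for 515 peaks in total. The first 10 of these intervals held 112 peaks and the last 10 before the start held 0. Since the start was placed at this step, these counts describe the choice of the boundary.

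**Figure D1:**
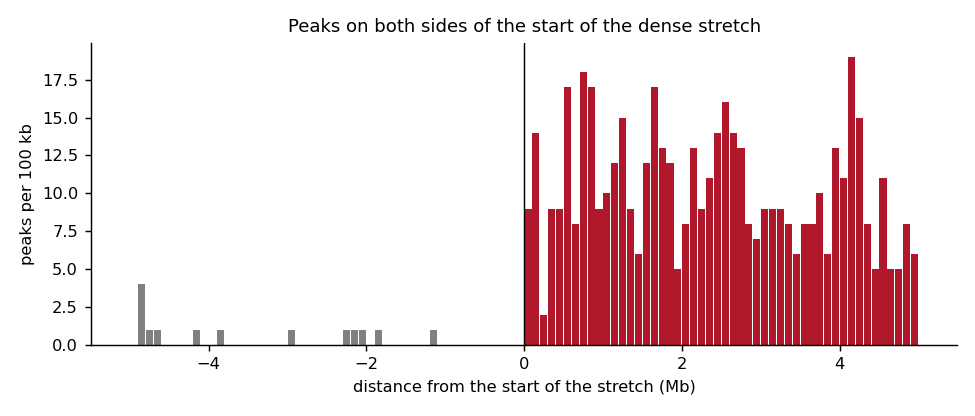
Peaks per interval of 100 kb (y axis) against the distance from the start of the stretch in Mb (x axis), with grey bars before the start and red bars after it. Of the 50 intervals before the start, 39 held no peak, and the 50 after it held 2 to 19.

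Of the 2701 members, 2522 were distal and 179 proximal. The stretch makes up 22.3% of the sequenced bases of chromosome 14 and holds 52.2% of its peaks. The rest of the chromosome had 26.2 peaks per Mb and all other autosomal sequence had 46.0 peaks per Mb. Members covered 4.26% of the bases of the stretch, against 2.72% in the other autosomal sequence, a ratio of 1.56. Coverage thus differed less than number. The median space between neighbouring members was 6658.5 bp, whereas that elsewhere on the autosomes was 9104 bp. Long empty intervals were few. Spaces over 50 kb made up 6.05% of the stretch and 49.2% of the other autosomal sequence, and only 2 of the spaces between members exceeded 100 kb. The longest ran for 150959 bp from 117633972 to 117784930, inside Gpc6. The last member ended 22524 bp before the last sequenced base of the chromosome.

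Density was high over nearly the whole length. In 27 consecutive windows of 1 Mb laid from the start, distal peaks numbered from 40 to 160, with a median of 94 and a mean of 93.2 ± 23.9 (SD over 27 windows). Each window was set beside all other autosomal windows of 1 Mb whose GC content lay within 1 percentage point, 151 to 461 windows each. These held 28.8 distal peaks per Mb on average, so the stretch was 3.24 times as dense. All 27 windows lay above the mean of their windows of similar GC and 24 of them above that mean plus 2 SD. For 14 of the 27, no window of similar GC held as many distal peaks. Proximal peaks differed less, with 6.59 ± 4.16 per Mb (SD over 27 windows) against 5.18 per Mb at similar GC, a ratio of 1.27. That direction turned when only TSSs of protein-coding genes were used, which gave 0.905, and when GC content was not restricted, which gave 0.677. Windows alike in GC content and also in annotated TSSs per Mb, within a factor of 1.5, gave a higher ratio, 1.75.

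**Figure D2:**
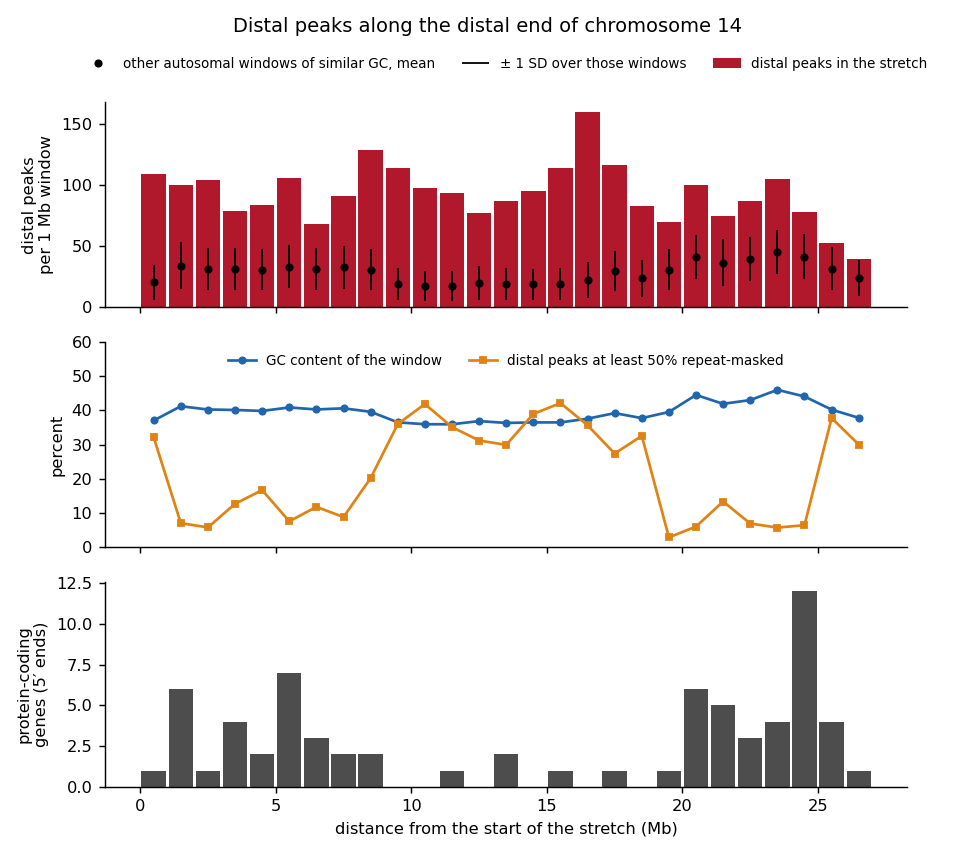
The panels share the x axis, which is the distance from the start of the stretch in Mb, in windows of 1 Mb. The top panel shows distal peaks per window (bars, 40 to 160) with the mean ± 1 SD of other autosomal windows of similar GC (points and lines), the middle panel the GC content of the window and the percentage of distal peaks that were at least 50% repeat-masked, and the bottom panel the number of protein-coding genes by their 5′ ends. The bars stay above the points in all 27 windows and fall to 53 and 40 in the last 2.

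The densest window, from 113707729 to 114707728, held 160 distal and 2 proximal peaks and no 5′ end of a protein-coding gene, against 22.7 ± 14.6 distal peaks (SD) in 410 windows of similar GC, of which the highest held 97. The next, from 105707729 to 106707728, held 129 distal peaks and the TSSs of Spry2, an inhibitor of receptor tyrosine kinase signalling, and of Trim52. The third, from 114707729 to 115707728 and directly after the densest, held 117 distal peaks and the start of Gpc5, a glypican that carries heparan sulfate at the cell surface. The 3 sparsest windows were the last 2, with 53 and 40 distal peaks, and the window from 103707729 to 104707728 with 68. The window with 53 peaks holds Ggact, Tmtc4, Nalcn and Itgbl1, and that with 40 holds Fgf14, a growth factor homologue that regulates sodium channels. The window with 68 holds the endothelin receptor gene Ednrb, the neural transcription factor gene Pou4f1 and Rnf219. In the last 2 windows the ratio to windows of similar GC was 1.67 and 1.66, and 58 of 434 and 62 of 401 such windows held at least as many distal peaks. The ratio was highest, at 7.06, in the densest window.

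Distal peaks were no fewer in the windows of low GC content. The 11 windows with a GC content under 38% hold the 5′ ends of 6 protein-coding genes and had 97.4 ± 29.4 distal peaks per Mb (SD, 11 windows). The 16 windows of higher GC hold the 5′ ends of 63 protein-coding genes and had 90.4 ± 19.9 distal peaks per Mb (SD, 16 windows), a difference smaller than the spread among windows. Elsewhere on the autosomes, the rest of chromosome 14 included, the 351 windows under 38% GC had 20.3 ± 14.2 and the 1995 windows of higher GC had 38.9 ± 19.8 distal peaks per Mb (SD). The ratio of the stretch to these windows was therefore 4.79 in windows of low GC and 2.32 in the others. The 6 windows without the 5′ end of a protein-coding gene held from 77 to 160 distal peaks. In windows with 11 or fewer annotated TSSs of any class the stretch averaged 95.1 distal peaks per Mb over 12 windows, and the highest of 388 such windows elsewhere held 73. Across the 27 windows distal peaks had a Pearson correlation of -0.12 with GC content and of -0.22 with the number of TSSs, and across the 2346 other windows of 0.51 and 0.32. The Spearman coefficients were -0.16 and -0.20 in the stretch and 0.52 and 0.46 elsewhere. Neighbouring windows share their surroundings, so these coefficients are descriptions.

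**Figure D3:**
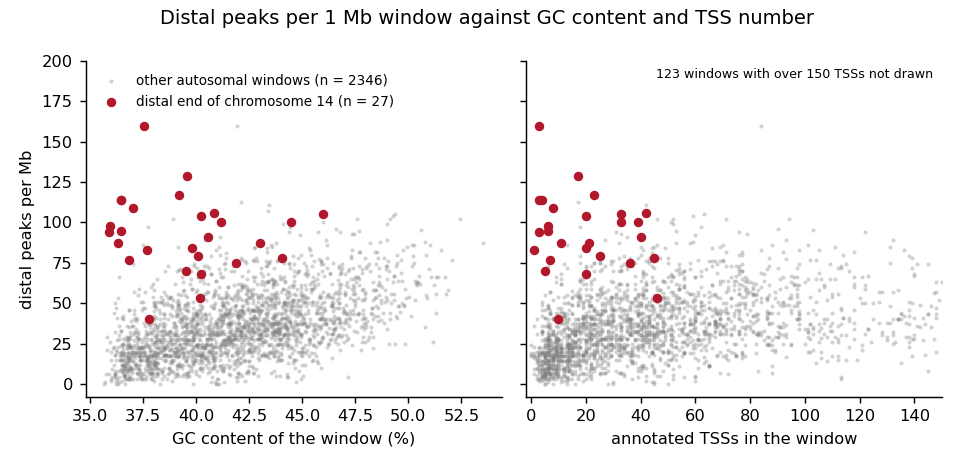
Distal peaks per Mb (y axis) in windows of 1 Mb against the GC content of the window in percent (left) and against its number of annotated TSSs (right). Red points are the 27 windows of the distal end of chromosome 14 and grey points the 2346 other autosomal windows, of which 123 with over 150 TSSs are not drawn on the right. The red points stay between 40 and 160 at every GC content, whereas the grey points rise with GC.

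As a description of what the stretch was selected on, the 1570 overlapping runs of 27 consecutive windows elsewhere on the autosomes averaged from 6.30 to 72.7 distal peaks per Mb, and the densest lay on chromosome 15. Of these runs, 382 had a mean GC content within 1 percentage point of the stretch, and the densest of them had 56.4 distal peaks per Mb. In proximal peaks per Mb the stretch was not extreme, since 249 of these 382 runs had fewer and 132 had more.

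Distal members were narrow. Their median width was 301 bp, with the middle 80% between 205 and 757 bp and the widest at 2377 bp, and the median at similar GC was 339 bp. The difference of -38 bp was smaller than the SD of 47.2 bp among the medians of the 27 windows, which ranged from 234.5 to 474 bp. That SD is the spread along the stretch, not an error of the difference. In all 1570 runs elsewhere the median width of distal peaks was larger, at 313 bp or more. Proximal members had a median width of 625 bp, against 945 bp at similar GC. Peaks under 200 bp made up 7.73% of distal members (195 peaks) and 5.98% of distal peaks at similar GC. None of the 11 regions over 5 kb in the list lay in the stretch.

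The excess over windows of similar GC was described by width, distance to a TSS, place and GC content, each taken alone. By width, the stretch had 39.1 distal peaks per Mb of at least 200 but under 300 bp against 10.5 at similar GC, a ratio of 3.72, and 4.18 times as many under 200 bp. Among distal peaks of at least 500 but under 1000 bp the ratio was 2.26, and among those of 1500 bp or more it was 2.31, from 16 peaks. Peaks of at least 200 but under 300 bp made up 44.4% of the excess in number. By distance, peaks more than 100 and up to 500 kb from any TSS were 6.46 times as frequent, at 19.3 against 2.99 per Mb, and those from 1 to 10 kb 1.96 times as frequent, at 18.1 against 9.22 per Mb. By place, intergenic peaks were 3.700 times, intronic peaks 2.77 times and exonic peaks 1.19 times as frequent, and intergenic peaks were 65.2% of distal members (1644 peaks) and 56.98% at similar GC.

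By GC content of the peak itself, distal peaks under 35% GC were 6.49 times as frequent as at similar window GC, with 6.50 against 1.00 per Mb. The ratio was lower in each higher class except for a rise from 3.12 to 3.22 between 40 to 45% and 45 to 50% GC, and was 1.49 for peaks of 55% GC or more. The mean GC content of distal members was 44.5% (SD 6.14 over peaks), which was 1.57 percentage points below distal peaks of windows of similar GC at 46.0%. This difference was smaller than the SD of 1.84 points among the means of the 27 windows, which is again a spread along the stretch and not an error. The 382 runs of similar GC had means from 44.7% to 50.1%, all above the stretch. The stretch itself had 39.5% GC, so its distal peaks were still richer in GC than their surroundings. The ratio of observed to expected CpG dinucleotides had a median of 0.166 in distal members and 0.407 in proximal members, and of 0.184 and 0.538 at similar GC.

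By repeat content, distal peaks without any repeat-masked base were 3.85 times as frequent as at similar GC, and those repeat-masked over 80% or more of their bases 3.11 times. Peaks at least 50% repeat-masked numbered 558, or 22.1% of distal members (95% Wilson interval 20.5 to 23.8%), against 23.3% at similar GC, and 214 of the 382 runs of similar GC had a lower share. Of the bases of the stretch, 35.1% were repeat-masked. The share varied along the stretch with GC content. In the 11 windows under 38% GC, 381 of 1071 distal peaks (35.6%, interval 32.8 to 38.5%) were at least 50% repeat-masked, and in the 16 other windows 174 of 1446 (12.0%, interval 10.5 to 13.8%). The corresponding shares at similar GC were 44.1% and 16.4% (the intervals cover counting error only). By window, the share ran from 29.9 to 42.1% (SD 4.41 points) in the first group, where all 11 windows lay below 44.1%. In the second it ran from 2.86 to 37.7% (SD 9.30 points), 4 of the 16 windows lay above 16.4%, and the difference was smaller than the SD over windows. That SD too is a spread along the stretch, not an error of the difference. The windows of the stretch were also less repeat-masked as a whole, over 34.9% of their bases on average against 37.3% in the windows of similar GC. The lowest share was in the window that holds the start of Gpc6 and the highest in the window that holds Tpm3-rs7.

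**Figure D4:**
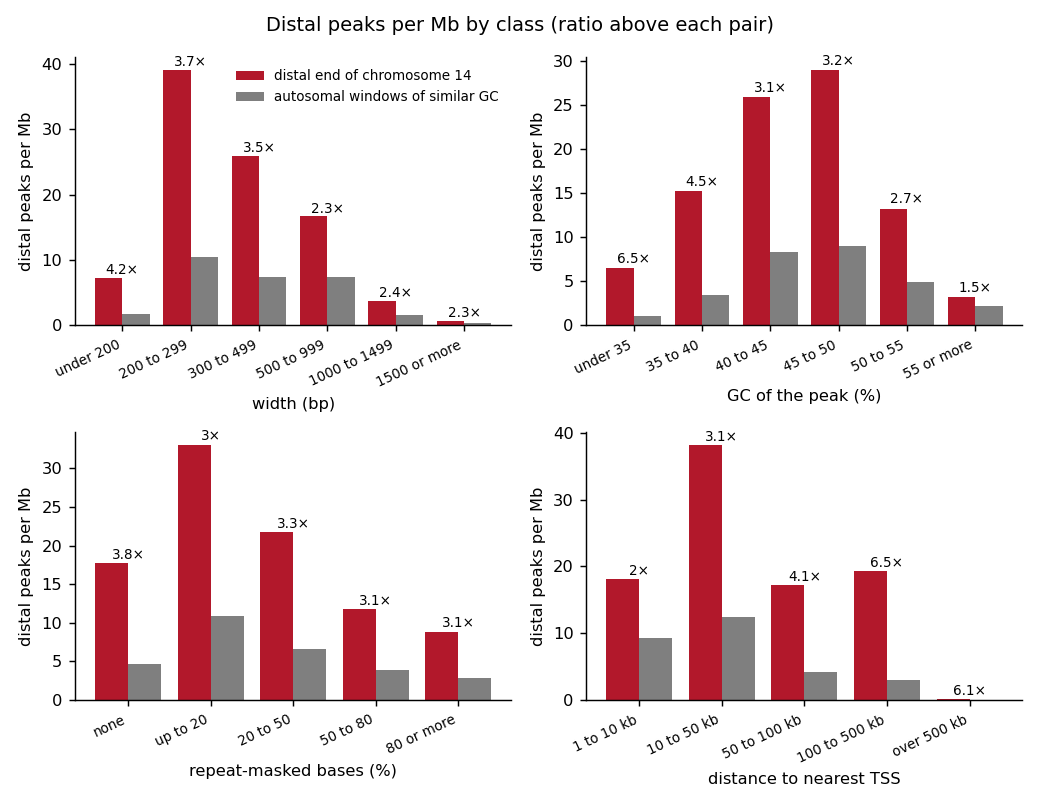
Distal peaks per Mb (y axes) by width, GC content, repeat-masked share and distance to the nearest TSS, in the distal end of chromosome 14 (red) and in autosomal windows of similar GC (grey), with the ratio printed above each pair of bars. The ratio falls from 6.5 to 1.5 with rising GC of the peak and rises from 2.0 to 6.5 with distance up to 500 kb, and stays between 3.0 and 3.8 over the repeat classes.

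The stretch holds 69 protein-coding genes, and 62 of them (89.9%, 95% Wilson interval 80.5 to 94.998%) had a peak centre within 1 kb of any of their TSSs, here called a promoter peak, against a background of 70.8% of all protein-coding genes. At the 5′ end of the gene 58 of the 69 had such a peak (84.1%, interval 73.7 to 90.9%), against a background of 65.3%. The other 4 of the 62, Prr30, Cldn10, Itgbl1 and Fgf14, had one only at an internal TSS. A 5′ end is called CpG-rich here where the 1000 bases around it have at least 50% GC and an observed to expected CpG ratio of at least 0.6. Such 5′ ends belonged to 44 of the 69 genes and to 9749 of the 21938 protein-coding genes of the whole list. The shares above are not adjusted for this. All 44 genes of the stretch with such a 5′ end had a peak there, as had 98.8% of such genes in the whole list. Of the 25 others, 14 had a peak at the 5′ end (56.0%, interval 37.1 to 73.3%), against a background of 38.5%, which lies within the interval. Among 72 long non-coding genes 30 had a TSS peak (41.7%, interval 31.0 to 53.2%), against a background of 34.9%, which also lies within its interval. Among 142 pseudogenes and genes of other classes 52 had one (36.6%, interval 29.1 to 44.8%), against a background of 12.6%, which lies below the interval. These intervals cover counting error only. How many of these TSS peaks the high density of peaks alone would place near a TSS was not tested.

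The 7 protein-coding genes without a promoter peak were Rpl36a-ps1, Acod1, Slitrk6, Gm9376, Gpr18, Gpr183 and Zic5. The TSS of Zic5 lies inside a peak of 2377 bp at chr14:122463435-122465811, whose centre is 1054 bp from the TSS, just past the limit. Acod1, which makes itaconate in activated macrophages, had its nearest peak centre at 4652 bp. Gpr183, a receptor for oxysterols on immune cells, had it at 4120 bp, and Gpr18, also a G protein-coupled receptor expressed in lymphocytes, at 12978 bp. Slitrk6, a membrane protein of the inner ear and retina, had it at 7509 bp. Rpl36a-ps1 (1677 bp) and Gm9376 (4198 bp) are short loci of 0.449 and 0.729 kb, of which the first is named as a pseudogene of a ribosomal protein gene. Each of the 7 still had distal peaks within 50 kb of a TSS, from 4 to 12 with a median of 9, and the median of 5754 autosomal genes elsewhere without a promoter peak was 3.

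The gene lists below are read against the 62 of 69 genes (89.9%) of the whole stretch. Among the transcription factor genes, 6 of 7 had a promoter peak. The exception was Zic5, just described. Klf12, a repressor related to Klf5, had a peak of 2178 bp at its 5′ end (chr14:100284439-100286616) and the most distal peaks of all genes of the stretch, 41 within 50 kb of its TSSs. Klf5 had 14, Sox21, a SoxB2 repressor of neural progenitors, had 12, and Pou4f1 had 10. Dach1, a cofactor of eye and limb development, had 8, and Zic2, a zinc finger factor of the early neural plate, had 7. Counts near genes with many TSSs, such as Klf12, cover more sequence than those near genes with 1 TSS.

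Of the 5 widest members, 4 lay at genes of the transcription factor list, to which 7 of the 69 genes of the stretch belong. The 5 were the peaks at Sox21 (2919 bp, chr14:118234593-118237511), Zic2 (2771 bp, chr14:122473816-122476586), Zic5 (2377 bp, given above), Dach1 (2359 bp, chr14:98167803-98170161) and Slitrk5 (2300 bp, chr14:111674413-111676712). Their GC content ran from 58.6% to 67.9%, above the mean of 51.7% for proximal members. At which genes the widest peaks elsewhere lie was not tested.

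Of the 8 genes listed for cell surface receptors, ligands and their regulators, 6 had a promoter peak. Ednrb, which guides neural crest cells, had a peak of 1752 bp 239 bp from a TSS but 1 distal peak within 50 kb, the fewest of the 69 genes. Spry2 had 16, Fgf14 11, and Oxgr1, a receptor for oxoglutarate, and Gpr180 9 each. Itgbl1, an integrin-like secreted protein, had 4. Of the Slitrk genes, which encode synaptic adhesion proteins, Slitrk1 and Slitrk5 had a promoter peak with 7 and 5 distal peaks within 50 kb, and Slitrk6, without one, had 4. Pcdh9, Pcdh17 and Pcdh20 of the same list lie outside the stretch. Gpc5, Gpc6 and Hs6st3, which adds sulfate to heparan sulfate chains, all had promoter peaks, of 1212, 2229 and 1972 bp, and 11, 4 and 7 distal peaks within 50 kb. Both pigment cell genes, Ednrb and the melanin enzyme gene Dct, had a promoter peak, that at the 5′ end of Dct being 695 bp wide.

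In the remaining lists every gene had a promoter peak, against 89.9% of all 69 genes. These were all 10 genes of cell division and of RNA or protein turnover, among them Bora, an activator of Aurora A and PLK1, Dis3, the nuclease of the RNA exosome, and Mycbp2, a ubiquitin ligase, with 31 distal peaks within 50 kb. Bora and Mzt1, a subunit that recruits gamma-tubulin, lie head to head and share 1 peak of 1590 bp. Dis3 and Pibf1 likewise share a peak of 1271 bp. All 6 genes of nuclear transport, secretion and protein folding had one, among them Ipo5, an importin, and Dnajc3, a chaperone of the endoplasmic reticulum. All 10 genes listed for signalling and the cytoskeleton, which include the splicing regulator gene Mbnl2, had a promoter peak. They had 7 to 35 distal peaks within 50 kb and a median of 21, the highest median of the lists. All 6 genes listed for channels and transporters, which include the enzyme genes Clybl and Pcca, had a promoter peak. Their distal peaks numbered 9 to 35 with a median of 19.5. These counts were not adjusted for the sequence covered, which is larger near genes with many TSSs. Over all 69 genes the number within 50 kb ran from 1 to 41 with a median of 10, and 63 of 69 exceeded the median of 5 of the 20738 other autosomal genes.

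Long genes carried many peaks in their bodies. The 20 protein-coding genes of 100 kb or more held 673 peaks in 7.86 Mb, or 85.7 per Mb, against 43.1 per Mb in 2352 such genes elsewhere on the autosomes, a ratio of 1.99. The 20 genes ranged from 38.02 to 186 peaks per Mb (SD 39.9). Of these, 18 exceeded the median of the others, 39.7 per Mb, and 7 exceeded their 90th percentile, 106 per Mb. The highest was Mbnl2 (chr14:120275669-120431697), a regulator of splicing, with 29 peaks in 156 kb, or 186 per Mb. It was followed by Lmo7, an actin-associated protein, with 151, Abcc4, an exporter of nucleotides and drugs, with 148, Klf12 with 128, and Farp1, a guanine exchange factor of neurons, with 125. The lowest 5 were Nalcn, a sodium leak channel, with 62.8, Hs6st3 with 50.6, Fgf14 with 47.2, Pcca, a mitochondrial carboxylase subunit, with 39.2, and Itgbl1 with 38.02 per Mb. Nalcn, Itgbl1 and Fgf14 lie next to each other in the sparser last windows of the stretch. The longest gene, Gpc5 (1433 kb), held 140 peaks, of which 139 were distal, and Gpc6 (1051 kb) held 83.

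**Figure D5:**
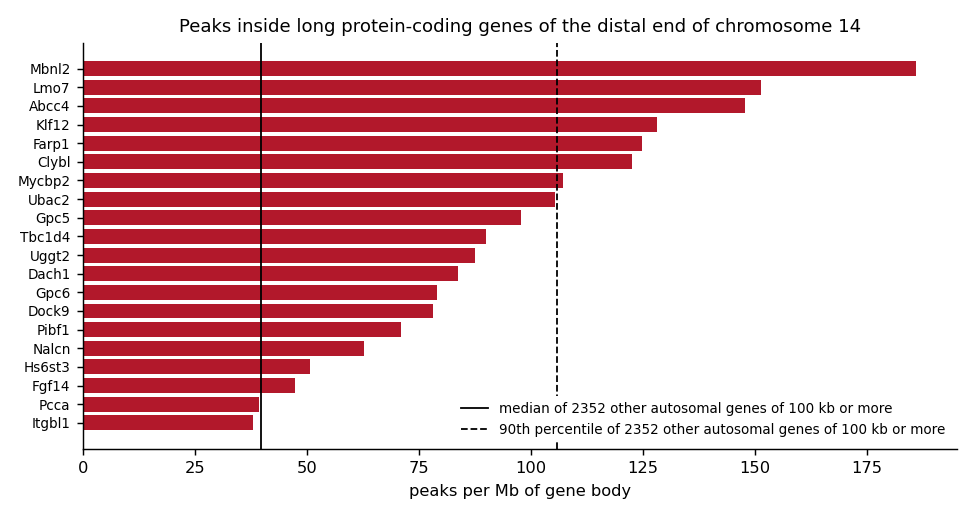
Peaks per Mb of gene body (x axis) in the 20 protein-coding genes of 100 kb or more of the distal end of chromosome 14 (bars), with the median (solid line, 39.7) and 90th percentile (dashed line, 106) of 2352 such genes elsewhere on the autosomes. Pcca and Itgbl1 lie below the median, and 7 genes from Mycbp2 to Mbnl2 lie above the 90th percentile.

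Motif content was compared with the 85911 distal peaks elsewhere on the autosomes, searching both strands. The composite OCT4::SOX2 motif, at which the pair binds together, was counted with up to 2 mismatches of its 15 positions. It was found in 13 distal members (0.515%, 95% Wilson interval 0.301 to 0.880%), against 0.448% elsewhere and 0.493% at similar GC. The octamer ATTTGCAT, which is also the first part of the composite motif, was found in 80 (3.17%, interval 2.56 to 3.93%), against 3.03% elsewhere. The SOX heptamer CCATTGT, whose reverse strand overlaps the end of the composite motif, was found in 211 (8.37%, interval 7.35 to 9.51%), against 9.49% elsewhere and 10.1% at similar GC. For all 3, the shares elsewhere lie within the intervals of the stretch, and for the SOX heptamer the share at similar GC lies above its interval. In peaks of at least 200 but under 400 bp, where width is alike, the SOX heptamer was in 5.47% of 1517 members and 5.25% of peaks elsewhere. There the octamer was in 2.37% (interval 1.72 to 3.27%) against 1.91%. The composite motif was in 0.330% (interval 0.141 to 0.769%) against 0.235%. In peaks of 400 bp or more the octamer was in 5.19% (interval 3.86 to 6.93%) against 4.26%. The composite motif was in 0.988% (interval 0.501 to 1.94%) against 0.695%. Each share elsewhere lies within its interval. Per 100 kb of distal peaks the octamer was 1.29 times and the composite motif 1.40 times as frequent as elsewhere.

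The other 3 motifs were found in a smaller share of the distal members than of distal peaks elsewhere. A CTCF consensus with up to 1 mismatch of 12 positions was in 152 distal members (6.03%, interval 5.16 to 7.02%), against 16.4% elsewhere and 12.7% at similar GC. Per Mb, distal peaks with a CTCF match were 1.54 times as frequent as at similar GC (5.61 against 3.65), and distal peaks without one 3.48 times (87.5 against 25.1). In peaks of at least 200 but under 400 bp the CTCF share was 2.90% (interval 2.17 to 3.87%) against 9.56% elsewhere, and in wider ones 13.1% (interval 10.9 to 15.6%) against 24.5%. The KLF motif, GGGCGTGGC or GGGTGTGGC, was in 43 distal members (1.70%, interval 1.27 to 2.29%), against 4.15% elsewhere and 2.80% at similar GC. In peaks of at least 200 but under 400 bp it was in 0.725% (interval 0.405 to 1.29%) against 1.57% at similar GC. In those of 400 bp or more it was in 3.95% (interval 2.81 to 5.52%), against 6.41% elsewhere but 4.62% at similar GC, which lies within the interval. The ESRRB motif TCAAGGTCA was in 44 (1.74%, interval 1.302 to 2.33%), against 3.14% elsewhere and 2.61% at similar GC. In peaks of at least 200 but under 400 bp it was in 0.659% of members (interval 0.358 to 1.21%) against 1.83% elsewhere, and in those of 400 bp or more in 4.20% (interval 3.02 to 5.81%) against 4.66%. A match is a run of letters, not evidence of binding, and all shares depend on the mismatches allowed.

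The 13 peaks with a composite match were 211 to 1706 bp wide, with a median of 647 bp, and 7 were intergenic and 6 intronic. In none was the match perfect. It had 1 mismatch in 3 peaks and 2 in 10, and it lay within 100 bp of the peak centre in 5 of the 13. The sequences of 60 bases around 2 of the matches with 1 mismatch and around 3 of those with 2 are shown to let the sites be compared, with the match in capitals and each written in the direction of the motif. The first lies in the window that holds Tpm3-rs7 (chr14:112824174-112824233, plus strand) and the second in an intronic peak 8774 bp from a TSS of Oxgr1 (chr14:120033628-120033687, plus strand). The third lies inside Dach1 (chr14:98022519-98022578, minus strand), the fourth inside Gpc6 and 174750 bp from the Dct TSS (chr14:117853013-117853072, minus strand), and the fifth inside Mbnl2 (chr14:120287557-120287616, plus strand).

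Window of Tpm3-rs7: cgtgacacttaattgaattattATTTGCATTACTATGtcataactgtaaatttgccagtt
Oxgr1: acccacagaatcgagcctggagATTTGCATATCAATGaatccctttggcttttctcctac
Dach1: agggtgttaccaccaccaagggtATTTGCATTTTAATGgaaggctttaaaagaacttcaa
Gpc6 and Dct: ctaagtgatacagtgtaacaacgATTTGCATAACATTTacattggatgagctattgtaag
Mbnl2: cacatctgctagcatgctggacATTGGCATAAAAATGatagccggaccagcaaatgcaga

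The match nearest to a peak centre among these was that at Oxgr1, 4 bp before the centre of a 569 bp peak with 46.6% GC. That of Mbnl2 lay 342 bp past the centre of the widest of the 13 peaks, 1706 bp. The other match with 1 mismatch lay in the last exon of Farp1, in a peak of 809 bp that reaches past the end of the gene. The other 7 peaks lay nearest to Slitrk1 (2 peaks), Slitrk5 (2 peaks), Gm9376, a second site near Oxgr1, and Clybl. Of all 13, 1 peak was at least 50% repeat-masked, and its nearest gene, Slitrk5, was 764006 bp away.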

How the data were processed

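ATAC-seq libraries of the ZHBTc4 OCT4-AID cells had been processed by the authors to a single list of peak positions. Per the methods and the submitters' processing notes, reads were aligned to GRCm38 (mm10) with STAR 2.6.1c, duplicates were removed with Picard, peaks were called on read pairs with MACS2 2.1.1.20160309, and the peaks of all experiments were merged with BEDTools. The methods further state that peaks over 5 kb, peaks that overlap Input peaks and blacklisted peaks were removed. The list used here still holds 11 regions over 5 kb, so peaks of the other kinds may also remain in it. The deposited columns hold chromosome, start and end (0-based starts, converted here to 1-based) and no signal, so no sample was compared with another and no test was run.

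GC content, soft-masked repeats and motif matches were read from GRCm38.p6, and TSSs of all transcripts from GENCODE M21. Proximal peaks had a centre within 1000 bp of a TSS, and the count at the 5′ ends of genes was added after the data were seen. Autosomal windows of 1 Mb with at least 90% sequenced bases were compared within 1 GC percentage point, and the windows compared with each window of the stretch shared equal total weight. Intervals are 95% Wilson intervals. Scripts, which were tested on simulated data, used pandas 2.3.3, matplotlib 3.10.9, scipy 1.17.1 and numpy 2.4.6 under Python 3.11.15.

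The stretch, the gene lists, the motifs and the alternatives were chosen with earlier results of these data known. Named genes were those of the lists that lie in the stretch, genes without a promoter peak, the 5 long genes with most and with fewest peaks per Mb, genes in the 3 densest and 3 sparsest windows, the 5 widest peaks and all peaks with an OCT4::SOX2 match. Of the 12 composite sequences the rule allowed, 5 outside exons are printed, chosen after they were seen. For Klf5 the 300 bases before the TSS replace the peak centre, which lies in the first exon.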

Additional observations from a re-analysis of the deposited data

How the results depend on the processing

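The list has no replicates, so a value counted as unmoved where it stayed within 1 SD over the 27 windows (for ratios in long genes, over the 20 genes), within its 95% interval for shares of genes and motifs, or within 1.5 times for the number of peaks. Of 125 alternative values for 17 results, 8 could not differ by construction (no member exceeds 5 kb, and the ratio inside long genes counts all peaks). Of the other 117, 111 stayed unmoved, 4 moved and 2 reversed. The SD limits were wide, at 0.831 for the ratio of distal peaks per Mb, 47.2 bp for the width difference and 32.7 points for the intergenic share. A width difference of -82 bp in place of -38 bp thus counted as unmoved, and so the label is a loose criterion. The ratio of proximal peaks per Mb to windows of similar GC reversed from 1.27 to 0.905 with TSSs of protein-coding genes only and to 0.677 with no restriction on GC, and rose to 1.75 with windows alike in GC and TSSs per Mb. Without that restriction the difference in mean GC of distal peaks moved to -3.45 percentage points. Peaks with at least 20% of their bases repeat-masked made up 45.4% of distal members and those with at least 80% made up 9.52%, against 22.1% at 50%. The second counted as unmoved only because the SD over windows was 13.7 points. With 1 mismatch more, the OCT4::SOX2 share was 3.97% and the CTCF share 29.4%. Shares elsewhere were not counted at this setting, so whether the lower CTCF share of the stretch holds there was not tested. The ratio of distal peaks per Mb ranged from 2.58 to 3.37, the difference in median width from -82 to -36 bp, the share of protein-coding genes with a TSS peak from 84.1% to 92.8% and the ratio inside long genes from 1.88 to 2.29. No paired analysis was possible because the merged list holds no values by sample. The list holds no read counts, so read depth and DNA copy number along the stretch, on which the number of called peaks can depend, were not tested.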
